A study of Arabidopsis thaliana with 6 samples.

Results

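Cytochrome P450 genes of stress and hormone turnover were compared between Arabidopsis thaliana seedlings kept with yttrium oxide nanoparticles and control seedlings. The families were chosen with earlier results of these data known. Within them genes were taken by name: every gene whose name in the deposited expression table places it in family CYP71B, CYP72, CYP76, CYP81D, CYP89, CYP94, CYP96, CYP702, CYP704, CYP706, CYP707, CYP709 or CYP714, leaving out AT3G26830, a gene of camalexin synthesis. This gave 109 of the 32948 genes in the table. All plants were wild type and were sampled at 6 h, 3 libraries from seedlings on MS medium (control) and 3 from seedlings given 20 mM yttrium oxide nanoparticles (treated). Whole seedlings were used, so root and shoot RNA were mixed, and fewer cells of a type cannot be told apart from less RNA per cell. No label states whether replicate libraries were grown as independent cultures. A p-value here therefore reflects the spread among these libraries alone, and that spread could be technical.

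Cytochrome P450s are haem proteins, mostly anchored in the endoplasmic reticulum, that insert an oxygen atom from molecular oxygen into small molecules. They draw electrons from NADPH-cytochrome P450 reductase and in some cases from cytochrome b5. In plants several families end the life of a hormone: CYP707A enzymes hydroxylate abscisic acid, CYP94 enzymes oxidise the active jasmonate conjugate, and CYP714A enzymes deactivate gibberellins. Others, such as many CYP71B, CYP76, CYP81D and CYP706A genes, lie in tandem arrays, and the substrates of many of them are not known.

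The haem is held by a cysteine near the end of the protein. A stretch of 30 coding bases with a phenylalanine codon first, a glycine codon at the fourth place, a cysteine codon at the eighth and a glycine codon last was found in 97 of the 109 genes. The sixth codon was arginine in 91 of the 97, and another in the 4 CYP707A genes, CYP71B3 and CYP702A3. The cysteine codon was TGT in 71 and TGC in 26, and 93 different stretches occurred among the 97 genes. The stretches of 10 genes to which the results below return are printed here from the TAIR10.1 reference, 5′ to 3′ on the coding strand, with the cysteine codon in capitals. They show the family signature and how near to each other the compared genes are. The coordinates are chr4:10523211-10523240 (plus) for CYP707A1, chr5:18369223-18369252 (minus) for CYP707A3, chr5:25409164-25409193 (minus) for CYP94B1 and chr3:17975278-17975307 (minus) for CYP94B3. For CYP72A8 they are chr3:4916671-4916700 (plus), for CYP71B19 chr3:9573713-9573742 (minus), for CYP71B20 chr3:9578578-9578607 (minus) and for CYP81D11 chr3:10788962-10788991 (minus). For CYP702A5 they are chr4:8806753-8806782 (plus) and for CYP702A6 chr4:8810137-8810166 (plus).
CYP707A1: tttggcaatggaacccactcgTGTcctgga
CYP707A3: tttggtagtgggattcattctTGTccaggc
CYP94B1: ttccaagccggaccaagggttTGCataggt
CYP94B3: tttcaagccgggccgagggttTGTgtaggg
CYP72A8: tttggatggggaccaagattcTGTcctggc
CYP71B19: tttgggtccggtcgaaggataTGTcccggg
CYP71B20: tttgggtccggtcgaaggataTGTcccggg
CYP81D11: tttgggattggacgacgatctTGCcctggt
CYP702A5: tttggctctggtactagactaTGTgtggga
CYP702A6: tttggctcgggttctagactaTGTgtagga

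CYP71B19 and CYP71B20 hold the same stretch base for base, and both of them rose in treated seedlings. The pattern was not found in the other 12 genes, among them CYP706A1, CYP706A2, CYP71B6, CYP71B37 and CYP709B3, whose changes are given below. Only this fixed pattern was searched, so a miss does not show that a gene lacks the haem cysteine.

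Levels are given in FPKM, fragments scaled to gene length and library size, so they can be compared between genes. Genes with a mean of at least 1 FPKM over the 6 libraries were tested with limma on log2(FPKM + 1), 2-sided, and a gene was called where its Benjamini-Hochberg adjusted p was under 0.05. Changes are treated minus control on this log scale and carry the standard error (SE) of the fit; for weakly expressed genes the scale gives too small a change. Library totals lay between 19314683 and 23374306 reads. A count of 0 allows up to 3 reads, or 0.129 to 0.154 FPKM in a gene of 1 kb, for counting error only. Treated library 2 lay nearest to the controls on the first principal component of all tested genes (25.1, against 48.2 and 40.7 for treated libraries 1 and 3).

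Of the 109 genes, 57 were tested, 18 rose and 5 fell. Of all 18614 genes tested 14.5% were called, 8.07% higher and 6.41% lower. Among the 57 P450s 40.4% were called, 31.6% higher and 8.77% lower. The families were chosen with earlier results of these data known, so these shares only describe the chosen genes. The groups did not overlap for 30 of the 57 (52.6%), and for 35.6% of all genes tested. Of the 57, 20 had every treated library above every control and 10 had every one below. Of all 18614 genes tested these orders held for 3528 (19.0%) and 3104 (16.7%). The median log2 change of the 57 was 0.11, against 0.00 over all genes tested, and single genes ranged from -2.13 (CYP702A5) to 1.83 (CYP706A2). Of the 18 genes that rose, 11 had a treated mean at least 2-fold the control mean. The number of rising genes was smaller with any library but treated library 2 left out. It was 8 without control 1, 10 without control 2, 9 without control 3 and 11 without treated library 3. The number called over all genes also fell without control 1 or control 2, as given in the last section. For these libraries a drop was thus not confined to the P450s. Whether the P450s lost more calls than other genes was not tested. The number of falling genes was 3 without control 1. Of the 23 called genes, 11 (8 higher, 3 lower) kept their call with each library left out in turn. Treated library 2 was the lowest of the treated libraries for 16 of the 18 rising genes.

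The 127 P450 genes outside these members gave other counts: of 77 tested, 6 rose and 23 fell, with a median log2 change of -0.27. This difference between the gene groups was not tested. Summed over all 109 genes, the P450 level was 762 ± 14.3 FPKM in controls and 883 ± 51.5 FPKM in treated libraries (SD, n = 3 each).

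**Figure D1:**
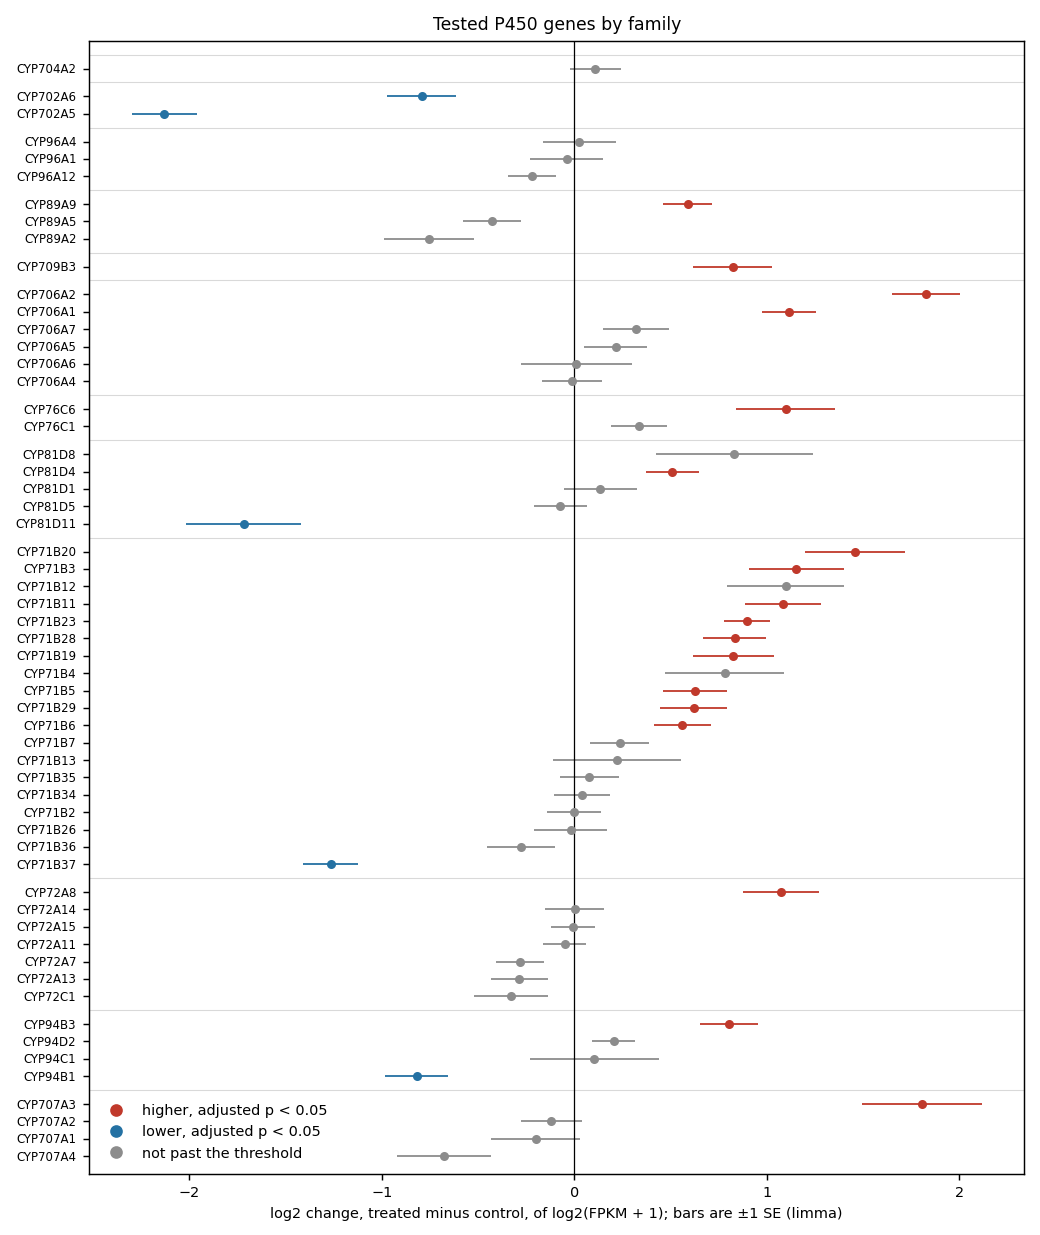
The 57 tested P450 genes by family, with the log2 change of log2(FPKM + 1), treated minus control, on the x axis and bars of ±1 SE from limma. Red genes rose, blue genes fell and grey genes did not pass the threshold; 9 of the 18 rising genes are CYP71B genes, and the deepest fall is that of CYP702A5 at -2.13.

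The CYP707A genes encode abscisic acid 8′-hydroxylases, which open the main route of abscisic acid breakdown. All 4 were tested and 1 of them, CYP707A3, rose. CYP707A3 (AT5G45340, chromosome 5, 18368532 to 18371021, minus strand, TAIR10) stood at 8.47, 4.95 and 11.3 FPKM in controls 1, 2 and 3 and at 25.5, 24.2 and 43.3 FPKM in treated libraries 1, 2 and 3. Every treated library lay above every control, and treated library 3 was the highest. The mean went from 8.23 ± 3.16 to 31.0 ± 10.7 FPKM (SD, n = 3 each), a ratio of 3.77 and a log2 change of 1.81 (SE 0.310, limma adjusted p = 0.00966). With 1 library left out the adjusted p ran from 0.0117 to 0.0372.

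The other CYP707A genes did not pass the threshold. CYP707A1, known in Arabidopsis from seed maturation and stomata, was at 6.35, 4.78 and 8.66 FPKM in controls and 7.36, 5.22 and 4.20 FPKM in treated libraries. CYP707A2, known from seed germination, averaged 6.5 ± 0.674 FPKM in controls and 5.96 ± 1.22 FPKM in treated libraries. The groups of both genes overlapped, with log2 changes of -0.20 (limma adjusted p = 0.604) and -0.12 (limma adjusted p = 0.654). CYP707A4 averaged 4.67 ± 0.989 FPKM in controls and 2.63 ± 1.11 FPKM in treated libraries, and its log2 change of -0.68 did not pass the threshold (SE 0.244, limma adjusted p = 0.106). Without treated library 1 limma called CYP707A4 lower, while edgeR and DESeq2 on all libraries did not. In controls the 4 levels lay within 4.67 and 8.23 FPKM, and the ranges of CYP707A1, CYP707A2 and CYP707A3 overlapped. In treated libraries CYP707A3 lay above the highest value of the other CYP707A genes in every library. Within a library the log2(FPKM + 1) of CYP707A3 exceeded that of CYP707A1 by 0.04 to 0.37 in controls and by 1.66 to 3.09 in treated libraries. The groups were fully apart (2-sided exact permutation p = 0.1, the smallest that 3 against 3 libraries allow, the pair having been chosen after its values were seen).

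The 250 bases before the start of these paired genes are shown because the nearest relative of CYP707A3 (82.9% identity over 63.9% of its transcript) did not pass the threshold. They are from the TAIR10.1 reference on the gene's strand, CYP707A1 at chr4:10521009-10521258 (plus) and CYP707A3 at chr5:18371022-18371271 (minus). Capitals mark the letters CACGTG (the G-box), TTGAC (the core of the W-box) and TGACG (the core of the as-1 element) on either strand.
CYP707A1: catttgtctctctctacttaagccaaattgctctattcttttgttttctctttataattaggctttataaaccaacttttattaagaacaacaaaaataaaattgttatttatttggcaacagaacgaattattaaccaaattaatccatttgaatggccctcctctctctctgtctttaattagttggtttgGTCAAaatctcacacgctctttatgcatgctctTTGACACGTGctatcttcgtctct
CYP707A3: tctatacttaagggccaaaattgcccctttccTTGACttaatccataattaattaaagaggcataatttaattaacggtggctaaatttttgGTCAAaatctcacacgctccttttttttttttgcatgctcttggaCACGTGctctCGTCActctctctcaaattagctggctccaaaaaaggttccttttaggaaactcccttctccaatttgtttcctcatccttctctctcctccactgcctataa
Both windows hold 1 CACGTG and 2 copies of TTGAC, and the CYP707A3 window alone holds 1 TGACG. In CYP707A1 the CACGTG shares bases with 1 TTGAC. The longest run common to both windows has 23 bases and starts 61 bases before the CYP707A1 start and 162 bases before the CYP707A3 start.
shared run: tttggtcaaaatctcacacgctc
Over 27443 promoters of protein-coding genes, CACGTG occurred in 6.49%, TTGAC in 44.9% and TGACG in 18.6% of windows of this length. Among the 109 P450 promoters the shares were 8.26%, 49.5% and 21.1%. Among the 18 genes that rose, 1, 11 and 3 promoters held them, and among the 5 that fell, 1, 2 and 2. These matches describe letters in a window and are not shown to be binding sites.

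Of 12 listed genes that make or release abscisic acid 8 were tested, 1 rose and 0 fell (median log2 change 0.14), and 1 was higher and 1 lower at an unadjusted p under 0.05. edgeR's quasi-likelihood test called 1 higher and 0 lower, and DESeq2 1 and 1. The call was lost with any library but treated library 2 left out, when 0 of the listed genes passed. ABA4, which acts in neoxanthin formation, stood at 7.36, 6.53 and 8.90 FPKM in controls and 12.5, 10.02 and 16.1 FPKM in treated libraries. Every treated value lay above every control value (log2 change 0.67, SE 0.179, limma adjusted p = 0.0391). NCED3, the stress-induced dioxygenase of abscisic acid synthesis and named here with its values known, was at 1.35, 2.46 and 1.56 FPKM in controls and 2.47, 9.64 and 2.46 FPKM in treated libraries. Only treated library 2 was well above the controls, and the change did not pass the threshold (log2 change 0.87, limma adjusted p = 0.232).

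The CYP94 family holds the enzymes that hydroxylate jasmonoyl-isoleucine, the hormone that its receptor recognises, and oxidise the product on to a carboxy derivative. Of 6 genes 4 were tested, 1 rose and 1 fell, and these were the closest relatives CYP94B3 and CYP94B1, both jasmonoyl-isoleucine 12-hydroxylases (78.5% identity over 72.2% of the CYP94B3 transcript). CYP94B3 (AT3G48520, chromosome 3, 17974853 to 17976774) stood at 1.01, 1.14 and 0.716 FPKM in controls and 2.72, 2.37 and 2.14 FPKM in treated libraries. All treated libraries were above the controls, and the mean rose 2.52-fold from 0.955 ± 0.218 to 2.41 ± 0.295 FPKM (0.81 on the log2 scale, SE 0.151, limma adjusted p = 0.00988). CYP94B1 (AT5G63450, chromosome 5, 25408821 to 25410725) stood at 4.85, 3.87 and 4.58 FPKM in controls and 2.43, 2.32 and 1.54 FPKM in treated libraries. No treated library reached the lowest control, and the mean fell from 4.44 ± 0.507 to 2.1 ± 0.49 FPKM (-0.82 on the log2 scale, SE 0.162, limma adjusted p = 0.0121). Without control 1 the CYP94B1 call was lost (limma adjusted p = 0.0630).

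CYP94B1 was the higher of this pair in every control and CYP94B3 in every treated library. The difference of log2(FPKM + 1), CYP94B3 minus CYP94B1, ran from -1.70 to -1.19 in controls and from 0.02 to 0.31 in treated libraries (2-sided exact permutation p = 0.1, again the smallest possible and for a pair chosen on its values). CYP94C1, which carries the oxidation on to the carboxy derivative, was at 6.70, 4.90 and 10.8 FPKM in controls and 11.8, 7.72 and 4.97 FPKM in treated libraries. Its groups overlapped widely (log2 change 0.10, limma adjusted p = 0.865). CYP94D2 had the highest mean of the family, 9.98 ± 0.257 FPKM in controls and 11.7 ± 1.26 FPKM in treated libraries. It did not pass the threshold, although the groups did not overlap (log2 change 0.20, limma adjusted p = 0.266).

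**Figure D2:**
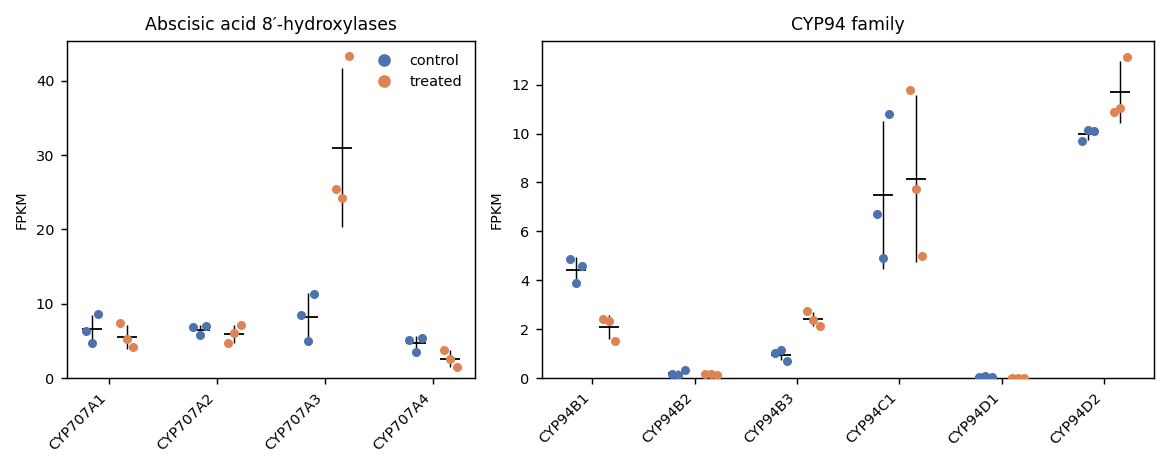
FPKM of each CYP707A gene (left) and each CYP94 gene (right) in the 3 control and 3 treated libraries, with the mean and SD as black lines. CYP707A3 stands apart from its relatives only in treated libraries (24.2 to 43.3 FPKM), and CYP94B1 and CYP94B3 change in opposite directions.

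Of 10 other genes of jasmonate turnover 7 were tested, 1 rose and 0 fell (median log2 change 0.49). ST2A (named SOT15 in the table), a sulfotransferase of hydroxyjasmonate, was at 0.894, 0.616 and 0.435 FPKM in controls and 3.95, 2.62 and 2.16 FPKM in treated libraries. Its groups did not overlap (log2 change 1.23, SE 0.2, limma adjusted p = 0.00524). Before adjustment 3 were higher and 0 lower at p under 0.05, edgeR called 2 higher and DESeq2 3 higher. Without treated library 3 limma called 3 higher.

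The CYP714A genes, which deactivate gibberellins, were too low for the test. CYP714A1 stood at 0.372, 0.348 and 0.578 FPKM in controls and at 0.206, 0.273 and 0 FPKM in treated libraries. CYP714A2 stood at 0.303, 0.164 and 0.262 FPKM in controls and at 0, 0 and 0.0722 FPKM in treated libraries. Both were lower in every treated library than in any control, at levels that rest on few reads. The authors' deposited table lists CYP714A2 with a log2 fold change of -3.41 (adjusted p-value 0.0363 there) and does not list CYP714A1. Of 9 further genes of gibberellin inactivation 2 were tested and 0 passed limma's threshold, with 1 higher at an unadjusted p under 0.05. The lowest adjusted p was that of GA2OX2, a gibberellin 2-oxidase, which averaged 5.46 ± 0.568 FPKM in controls and 9.44 ± 3.03 FPKM in treated libraries (log2 change 0.66, limma adjusted p = 0.0666). edgeR and DESeq2 each called 1 of the 2 higher, as did limma without treated library 3.

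In the CYP72 family 1 of 7 tested genes rose and 0 fell (median log2 change -0.05). CYP72A8 (AT3G14620, chromosome 3, 4914789 to 4917176) was at 4.25, 4.26 and 4.92 FPKM in controls and 12.3, 7.31 and 12.8 FPKM in treated libraries. All treated libraries were above the controls, with library 2 the lowest (ratio 2.41, log2 change 1.07, SE 0.198, limma adjusted p = 0.00916). CYP72A8 lies in an array of 8 CYP72A genes within 27.5 kb, in which the other 5 tested genes did not pass the threshold. Its neighbour CYP72A7 averaged 7.12 ± 0.375 FPKM in controls and 5.70 ± 0.703 FPKM in treated libraries (log2 change -0.28, limma adjusted p = 0.174). The most abundant member, CYP72A11, averaged 46.0 ± 1.16 and 44.5 ± 4.60 FPKM (log2 change -0.05, limma adjusted p = 0.794), and 6.40% of its 50-base windows also occur in another gene.

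CYP72A9, a gibberellin 13-hydroxylase beside CYP72A8, was not tested. It was at 0.0499, 0 and 0.0432 FPKM in controls and 0.277, 0.298 and 0.309 FPKM in treated libraries. A count of 0 would allow values as high as those of its controls. CYP72C1, a gene linked to brassinosteroid inactivation, averaged 1.49 ± 0.392 and 0.990 ± 0.360 FPKM (log2 change -0.33, limma adjusted p = 0.296). Its value is uncertain, because an opposite-strand gene covers 50.9% of its length and the use of strand in counting is not stated.

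CYP71B was the largest family, with 33 genes, and the one with the most calls. Of 19 tested genes 9 rose and 1 fell, and the median log2 change was 0.62. The summed CYP71B level was 198, 219 and 199.9 FPKM in controls and 269, 249 and 309 FPKM in treated libraries, so every treated sum lay above every control sum. The number of rising genes was 3 without control 1, 5 without control 2, 4 without control 3, 5 without treated library 1 and 4 without treated library 3, while edgeR called 10 and DESeq2 11 higher.

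An array of 16 CYP71B genes spans 83.0 kb of chromosome 3 (9565627 to 9648658). Of its 10 tested genes 4 rose, and all of these lie in the first part of the array by coordinate: CYP71B19, CYP71B20, CYP71B23 and CYP71B3. CYP71B20 (AT3G26180) had the largest rise of the family by log2 change. It was at 4.32, 3.53 and 5.21 FPKM in controls and 13.5, 9.13 and 20.2 FPKM in treated libraries. The groups lay well apart, and treated library 3 was the highest (ratio 3.27, log2 change 1.46, SE 0.261, limma adjusted p = 0.00989). CYP71B19 (AT3G26170) was at 1.64, 1.83 and 2.16 FPKM in controls and 3.62, 3.04 and 6.05 FPKM in treated libraries (log2 change 0.83, SE 0.212, limma adjusted p = 0.0348). This pair is 93.3% identical, and 20.9% of the 50-base windows of CYP71B19 and 19.5% of those of CYP71B20 occur in another gene. Reads could be split between them, so their single values are uncertain.

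CYP71B23 (AT3G26210) gave the closest replicates of the array. It was at 3.5, 3.53 and 3.75 FPKM in controls and 8.26, 7.13 and 7.31 FPKM in treated libraries, a ratio of 2.11 (log2 change 0.90, SE 0.118, limma adjusted p = 0.00178). CYP71B3 (AT3G26220) was at 0.449, 0.873 and 0.502 FPKM in controls and 4.02, 1.55 and 2.51 FPKM in treated libraries. Its control level was below 1 FPKM in every library, and the treated libraries were above it with wide spread (ratio 4.43, log2 change 1.15, SE 0.247, limma adjusted p = 0.0173). CYP71B24, next to it, missed the level needed for the test but had the same order of groups, with 0.134, 0.323 and 0.255 FPKM in controls and 1.26, 0.911 and 2.33 FPKM in treated libraries. The authors' deposited table gives CYP71B24 a log2 fold change of 2.65.

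At the other end of the array CYP71B37 (AT3G26330, chromosome 3, 9646784 to 9648658) fell. It was at 8.38, 7.47 and 7.35 FPKM in controls and 2.92, 2.08 and 2.96 FPKM in treated libraries, 2.92-fold lower by means (log2 change -1.27, SE 0.144, limma adjusted p = 0.000814). All treated libraries were below the controls with a narrow spread. Its neighbour CYP71B36 averaged 2.04 ± 0.4 and 1.51 ± 0.417 FPKM and did not pass the threshold (log2 change -0.28, limma adjusted p = 0.333). Between the rising genes and CYP71B37 lies CYP71B26, the most abundant CYP71B gene, at 52.2, 60.8 and 42.1 FPKM in controls and 41.7, 64.1 and 47.9 FPKM in treated libraries. Its groups overlapped throughout (log2 change -0.02, limma adjusted p = 0.956). CYP71B4 had wide spread, 5.33, 8.23 and 3.99 FPKM against 6.64, 11.5 and 14.4 FPKM (log2 change 0.78, limma adjusted p = 0.142). DESeq2 called CYP71B4 higher, while edgeR did not.

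**Figure D3:**
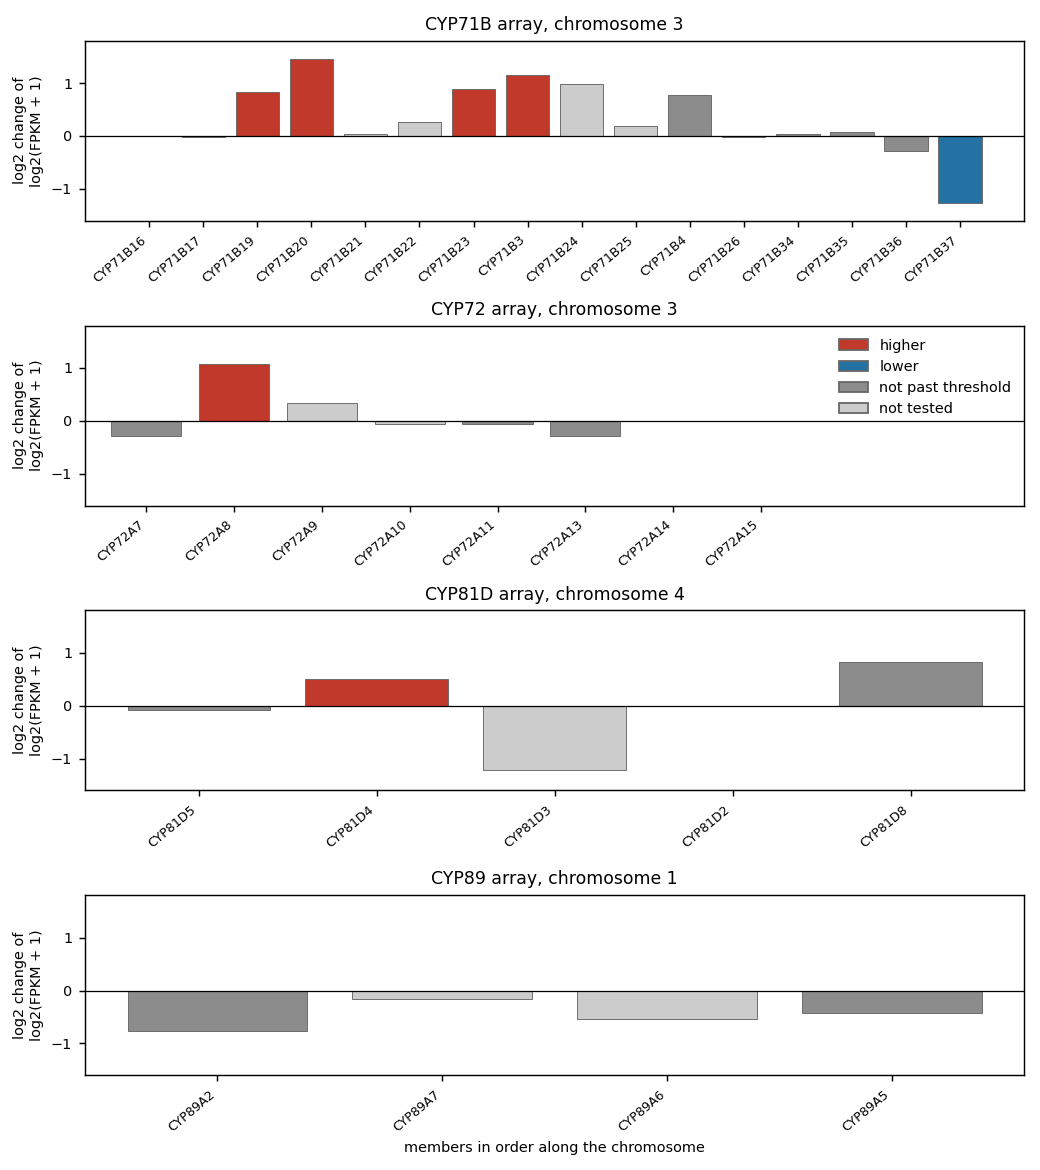
Log2 change of log2(FPKM + 1), treated minus control, of each member of 4 tandem arrays, in order along the chromosome. In the CYP71B array the 4 rising genes (red) lie toward one end and CYP71B37 (blue) at the other, and in the CYP72 array CYP72A8 alone passed the threshold; pale bars are genes too low for the test.

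A further 5 CYP71B genes rose elsewhere in the genome. CYP71B11 (AT5G25120, chromosome 5, 8661970 to 8664681) was at 3.6, 3.04 and 3.75 FPKM in controls and 9.67, 5.92 and 10.4 FPKM in treated libraries (log2 change 1.08, SE 0.196, limma adjusted p = 0.00851). Its closest relative CYP71B12 was at 1.75, 1.5 and 2.37 FPKM in controls and 6.91, 2.67 and 6.82 FPKM in treated libraries. For CYP71B12 9.53% of the 50-base windows also occur in another gene, so its values are uncertain. CYP71B12 just missed the threshold with treated library 2 near the controls (log2 change 1.1, SE 0.303, limma adjusted p = 0.0504), and edgeR and DESeq2 both called it higher. On chromosome 1, CYP71B28 (AT1G13090) was at 10.6, 12.9 and 11.4 FPKM in controls and 20.8, 17.4 and 27.2 FPKM in treated libraries (log2 change 0.83, SE 0.164, limma adjusted p = 0.0120). CYP71B29 (AT1G13100), which lies beside it, was at 4.96, 4.89 and 6.53 FPKM in controls and 9.003, 7.01 and 10.96 FPKM in treated libraries (log2 change 0.62, SE 0.175, limma adjusted p = 0.0495). The groups of both genes were apart, although CYP71B29 passed the threshold only narrowly.

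CYP71B6 (AT2G24180), which turns indole-3-acetonitrile into indole-3-carbaldehyde and indole-3-carboxylic acid, was the most abundant of the rising CYP71B genes. It was at 28.0, 34.0 and 33.3 FPKM in controls and 57.8, 42.3 and 42.9 FPKM in treated libraries. Each treated library was higher, library 1 most of all (ratio 1.5, log2 change 0.56, SE 0.148, limma adjusted p = 0.0387). CYP71B5 (AT3G53280) was at 5.54, 6.08 and 6.48 FPKM in controls and 11.3, 7.49 and 11.2 FPKM in treated libraries (log2 change 0.63, SE 0.164, limma adjusted p = 0.0376). CYP71B19, CYP71B29, CYP71B5 and CYP71B6 each kept their call only with treated library 2 left out. Their adjusted p reached 0.126, 0.164, 0.135 and 0.144 without control 1 and exceeded 0.05 also without control 2, control 3, treated library 1 or treated library 3. CYP71B3 lost its call without control 1 (0.0789), control 3 (0.0630) or treated library 3 (0.0514), and CYP71B28 without control 1 (0.0610). CYP71B11, CYP71B20, CYP71B23 and CYP71B37 kept theirs with each library left out in turn.

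**Figure D4:**
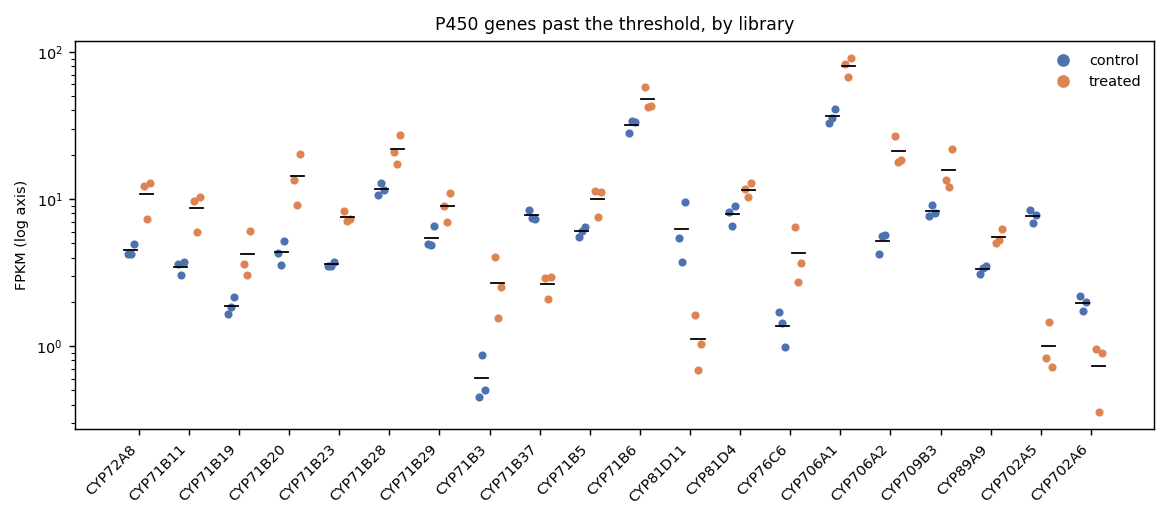
FPKM on a log axis of 20 called P450 genes in each control and treated library, with the group mean as a black line; CYP707A3, CYP94B1 and CYP94B3 are drawn in the plot of the hormone families. The groups do not overlap for any of them, which is no further evidence, since the genes were called on these same values. CYP71B37, CYP81D11, CYP702A5 and CYP702A6 are the genes among them that fell.

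The CYP81D family, often named among genes induced by chemicals and reactive oxygen, split. Of 5 tested genes 1 rose and 1 fell. CYP81D11 (AT3G28740, chromosome 3, 10788698 to 10790553), known to be induced by cis-jasmone and by xenobiotics, fell. It was at 5.45, 3.74 and 9.5 FPKM in controls and 1.64, 0.685 and 1.03 FPKM in treated libraries, 5.58-fold lower by means. The controls varied by more than the treated libraries, but all treated values were below them (log2 change -1.72, SE 0.299, limma adjusted p = 0.00883). CYP81D4 (AT4G37330) was at 8.10, 6.60 and 8.92 FPKM in controls and 11.7, 10.3 and 12.8 FPKM in treated libraries, a ratio of 1.47 (log2 change 0.51, SE 0.138, limma adjusted p = 0.0437). The CYP81D4 call held only with treated library 2 left out. Without control 1, 2 or 3 its adjusted p was 0.114, 0.148 or 0.0540, and without treated library 1 or 3 it was 0.104 or 0.111.

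CYP81D8, a gene induced by many stresses and the most abundant of the family, did not pass the threshold. It was at 10.2, 8.46 and 15.8 FPKM in controls and 38.0, 19.4 and 11.6 FPKM in treated libraries. Treated libraries 1 and 2 were above all controls and treated library 3 lay among them (log2 change 0.83, SE 0.407, limma adjusted p = 0.224). CYP81D3 was at 1.66, 1.81 and 1.66 FPKM in controls and 0.182, 0.284 and 0.0582 FPKM in treated libraries, and its overall mean of under 1 FPKM kept it out of the test. The authors' deposited table gives CYP81D3 a log2 fold change of -3.27.

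In the CYP76 family, whose studied Arabidopsis members oxidise monoterpenols such as linalool, 2 of 8 genes were tested and 1 rose. CYP76C6 (AT1G33720, chromosome 1, 12220858 to 12224108) was at 1.71, 1.44 and 0.983 FPKM in controls and 6.45, 2.71 and 3.66 FPKM in treated libraries. Each treated library was above the controls, library 1 most of all (ratio 3.10, log2 change 1.1, SE 0.258, limma adjusted p = 0.0263). Its adjusted p was 0.0655, 0.0759 and 0.0892 without control 1, 2 and 3 and 0.0587 without treated library 3. CYP76C1, which oxidises linalool in flowers, was the most abundant at 24.1 ± 3.15 and 30.7 ± 5.10 FPKM (log2 change 0.34, limma adjusted p = 0.168). CYP76C2 was at 0.406, 0.475 and 0.332 FPKM in controls and 1.19, 3.29 and 0.279 FPKM in treated libraries, so treated library 3 did not share the higher level of the other treated libraries.

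In the CYP706 family 2 of 6 tested genes rose, and they were a tandem pair on chromosome 4. CYP706A2 (AT4G22710, 11934969 to 11936823) had the largest rise of the 57 tested P450s on the log2(FPKM + 1) scale, while CYP71B3 had the larger ratio of means (4.43). It was at 4.21, 5.62 and 5.68 FPKM in controls and 27.0, 17.9 and 18.4 FPKM in treated libraries, a ratio of 4.08 (log2 change 1.83, SE 0.178, limma adjusted p = 0.000360). CYP706A1 (AT4G22690, 11929359 to 11931750) was at 32.7, 35.5 and 41.0 FPKM in controls and 83.1, 67.4 and 90.2 FPKM in treated libraries, a ratio of 2.20 (log2 change 1.11, SE 0.142, limma adjusted p = 0.00150). For both genes the lowest treated library was far above the highest control. The pair is 93.0% identical, and 46.6% of the 50-base windows of CYP706A1 and 60.4% of those of CYP706A2 occur in another gene, so the division of reads between them is uncertain. In a second array on chromosome 4, CYP706A4 to CYP706A7, 0 of 4 genes passed limma's threshold, and no other CYP706 gene was called by edgeR or DESeq2. CYP706A6, the most abundant there, was at 41.5, 56.4 and 43.9 FPKM in controls and 29.7, 51.3 and 68.6 FPKM in treated libraries, on both sides of the controls (log2 change 0.01, limma adjusted p = 0.986). For CYP706A6 7.57% of the 50-base windows also occur in another gene.

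CYP709B3 (AT4G27710, chromosome 4, 13828189 to 13830682), linked to the abscisic acid and salt response, rose. It was at 7.62, 9.17 and 7.97 FPKM in controls and 13.5, 12.1 and 21.8 FPKM in treated libraries, with library 3 the highest (ratio 1.92, log2 change 0.82, SE 0.204, limma adjusted p = 0.0322). The call was lost without control 1 (0.118), control 2 (0.0663), control 3 (0.0957) or treated library 1 (0.0569). CYP709B2, of the same family, was too low for the test and lay lower in every treated library, at 0.504, 0.373 and 0.795 FPKM in controls and 0.142, 0.161 and 0.0226 FPKM in treated libraries.

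In the CYP89 family 1 of 3 tested genes rose. CYP89A9 (AT3G03470, chromosome 3, 824552 to 826585), which forms dioxobilin-type chlorophyll catabolites in senescing leaves, was at 3.11, 3.38 and 3.5 FPKM in controls and 5.03, 5.28 and 6.27 FPKM in treated libraries. The groups were narrow and apart (ratio 1.66, log2 change 0.59, SE 0.129, limma adjusted p = 0.0190). Its adjusted p was 0.0837, 0.0651 and 0.0515 without control 1, 2 and 3 and 0.0527 without treated library 3. CYP89A2, the most abundant of all 109 genes by overall mean, was at 111, 118 and 93.9 FPKM in controls and 50.02, 93.6 and 53.2 FPKM in treated libraries. Treated library 2 lay just under the lowest control and the other treated libraries far under it. The change missed the threshold (log2 change -0.76, SE 0.234, limma adjusted p = 0.0717), while DESeq2 called it lower. CYP89A5, with 31.1% of its windows shared with another gene, averaged 35.7 ± 3.85 and 26.5 ± 4.68 FPKM (log2 change -0.43, limma adjusted p = 0.100006). The summed CYP89 level was lower in every treated library (80.8 to 128 FPKM) than in any control (137 to 154 FPKM), although the single called gene rose.

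Of 10 other genes of chlorophyll breakdown 9 were tested, 1 rose and 0 fell (median log2 change 0.25). PAO, the oxygenase that opens the chlorophyll ring, was at 24.2, 27.1 and 29.5 FPKM in controls and 47.8, 39.7 and 36.6 FPKM in treated libraries. Every treated library was above the controls (log2 change 0.60, SE 0.132, limma adjusted p = 0.0199). Before adjustment 3 were higher at p under 0.05, and edgeR called 1 and DESeq2 3 of the 9 higher. Without control 1, control 2 or treated library 1 the number higher was 0, without control 3 it was 2 and without treated library 2 it was 3.

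The deepest fall on the log scale among the 57 tested P450s was that of CYP702A5. CYP702A5 and CYP702A6, adjacent genes in a region of chromosome 4 known for triterpene synthesis genes, were the only ones of 6 that could be tested, and both fell. CYP702A5 (AT4G15393, 8804070 to 8807232) was at 8.47, 6.86 and 7.78 FPKM in controls and 0.833, 1.47 and 0.721 FPKM in treated libraries. It was 7.64-fold lower by means, and no treated library came near a control (log2 change -2.13, SE 0.171, limma adjusted p = 0.000123). CYP702A6 (AT4G15396, 8807483 to 8810512) was at 2.18, 1.74 and 2.01 FPKM in controls and 0.954, 0.359 and 0.894 FPKM in treated libraries (log2 change -0.79, SE 0.179, limma adjusted p = 0.0214). Its call was lost without control 1 (0.0915) or control 3 (0.0680). The summed CYP702 level went from 10.02 ± 0.927 to 1.76 ± 0.126 FPKM.

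Root marker genes were lower in the same libraries. Of 11 listed root markers 10 were tested, 8 fell and 0 rose, with a median log2 change of -1.86. Without any 1 control library 9 were tested and 6 fell. Their summed level ran from 2013 to 2516 FPKM in controls and from 479 to 540 FPKM in treated libraries, most of it from BGLU23, a glucosidase of endoplasmic reticulum bodies. CASP1, which marks the root endodermis, went from 9.27 ± 0.518 to 0.154 ± 0.0841 FPKM, and EXPA18, a root hair expansin, was listed at 0 in treated libraries 1 and 3. MYB36 and SCR did not pass the threshold. The part of root RNA in the falls of CYP702A5, CYP702A6, CYP81D11, CYP71B37 and CYP94B1 was not tested. Of the other markers, 1 of 6 for shoot epidermis and guard cells fell (KAT1), 1 of 4 for mesophyll rose (LHCB2.1) and 2 of 7 for vascular tissue fell (XCP1 and CESA8). edgeR and DESeq2 each called 4 of the 7 vascular markers lower, and 5 were lower at an unadjusted p under 0.05. With any 1 library left out limma called 1 of the vascular markers lower, the mesophyll count was 0 without control 1 or 2, and the epidermis and guard cell count was 0 without control 2, control 3, treated library 1 or treated library 3. The summed mesophyll marker level, 8764 to 10087 FPKM in controls and 8759 to 10056 FPKM in treated libraries, covered the same range in both groups.

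The CYP96 family, known from the midchain alkane hydroxylase CYP96A15 of stem wax, had 13 genes. Of these 3 were tested and 0 were called by limma, edgeR or DESeq2, with 0 at an unadjusted p under 0.05. CYP96A12, the most abundant, averaged 8.1 ± 1.003 FPKM in controls and 6.77 ± 0.352 FPKM in treated libraries (log2 change -0.22, limma adjusted p = 0.274). The summed CYP96 level overlapped between groups, at 17.1 to 19.8 FPKM in controls and 15.9 to 20.8 FPKM in treated libraries. Of 9 wax synthesis genes 8 were tested and 0 were called by limma, edgeR or DESeq2, with 0 at an unadjusted p under 0.05 (median log2 change -0.04). CER2, which acts in the elongation of very-long-chain fatty acids, had the lowest adjusted p (log2 change -0.11, limma adjusted p = 0.534). The untested wax gene CER4 (FAR3 in the table), a fatty acyl reductase, was at 1.02, 0.764 and 1.19 FPKM in controls and 0.0938, 0.256 and 0.0525 FPKM in treated libraries. All its treated values were below the controls, and with no filter on low values 1 of the 9 wax genes was called lower. In the CYP704 family 1 of 3 genes was tested. CYP704A2 averaged 6.12 ± 0.123 and 6.72 ± 1.1 FPKM (log2 change 0.11, limma adjusted p = 0.627), and edgeR and DESeq2 did not call it either. For CYP704A2 9.17% of the 50-base windows also occur in another gene.

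**Figure D5:**
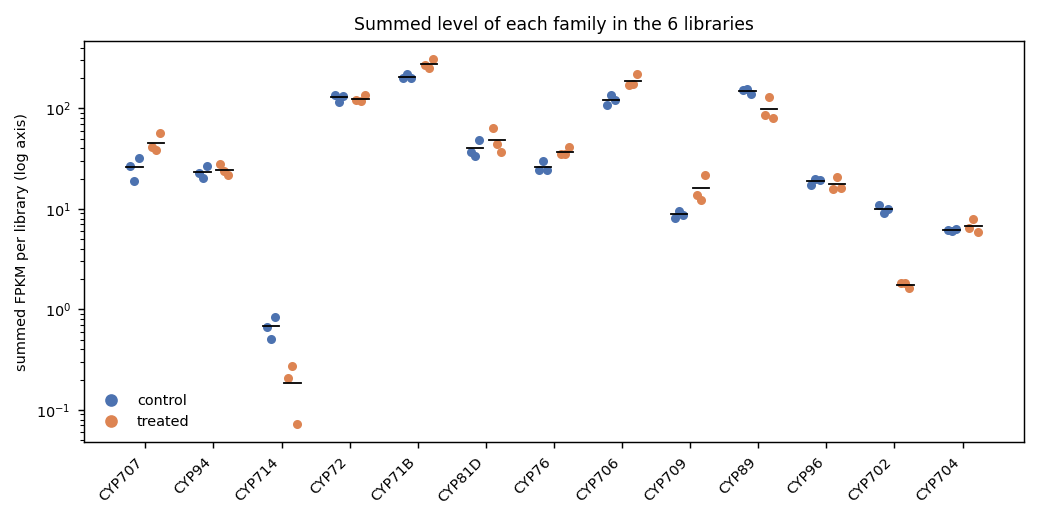
Summed FPKM of each of the 13 families in each library on a log axis, with the group mean as a black line. The CYP71B, CYP706, CYP76, CYP707 and CYP709 sums are higher in every treated library than in any control, and the CYP702, CYP714 and CYP89 sums are lower. In CYP707, CYP76 and CYP709 only 1 gene each was called higher. The CYP714 sums (0.0722 to 0.841 FPKM) rest on few reads of untested genes.

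The electron donors of the P450s were listed apart. Of 8 redox partner genes, all tested, 0 rose and 1 fell (median log2 change -0.10), and edgeR and DESeq2 gave the same counts. Cytochrome b5 gene CB5-C (CYTB5-C in the table) was at 109, 112 and 87.1 FPKM in controls and 54.3, 58.2 and 49.1 FPKM in treated libraries. Every treated library was below the controls (log2 change -0.91, SE 0.131, limma adjusted p = 0.00279). The P450 reductase genes ATR1 and ATR2, named after their values were seen, averaged 49.5 and 78.8 FPKM in controls and 55.0 and 92.6 FPKM in treated libraries, and neither passed the threshold (limma adjusted p = 0.405 and 0.209).

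The 52 genes not tested are accounted for as follows. Of these, 14 had no read in any library and 38 had a read in at least 1. The highest mean among them was 0.995 FPKM and the lowest among the tested genes 1.24 FPKM. In 3 of the 38 every treated library lay above every control (CYP72A9, CYP71B24 and CYP71B25), and in 9 every treated library lay below. For CYP71B25 control 3 and treated library 2 each held 1 read (0.0277 and 0.0294 FPKM), so their order rests on scaling alone. Among all 6823 untested genes with a read the shares were 6.9% and 12.9%. The difference from these shares was not tested. A group mean of at least 1 FPKM was reached by 4 of them, CYP81D3, CYP71B24, CYP76C2 and CYP89A6. By family, 14 CYP71B, 10 CYP96, 6 CYP76, 4 CYP81D, 4 CYP702, 3 CYP89, 2 CYP94, 2 CYP72, 2 CYP704, 2 CYP709, 2 CYP714 and 1 CYP706 genes were not tested.

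The authors' deposited comparison table holds 2104 genes, against 32948 in the expression table. It lists 24 of the 109 genes, 15 higher and 9 lower. These include 16 of the 23 genes called here, with the same direction for each. Both come from the same 6 libraries, so the shared direction is not independent evidence. The smallest log2 fold change in size among the 24 is 1.07 (CYP71B23), whereas calls here rest on the adjusted p alone. DESeq2 on the recovered reads called all 23, so absence from the authors' table does not speak against a call. The other 8 are CYP71B12 and 7 genes that were too low for the test here: CYP702A2, CYP709B2, CYP714A2, CYP71B24, CYP72A9, CYP76C2 and CYP81D3.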

How the data were processed

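The authors deposited 1 table of FPKM values for 6 libraries and 1 comparison table. In the latter the authors' signal is a read count divided by a size factor per library, beside the authors' log2 fold changes and p-values, per the file headers and values. HISAT2 2.0.5 and build TAIR10 were used, as the submitters' processing notes record. Program of counting, annotation release, strandedness and filters: not given in the sources used here. Groups come from the treatment label. FPKM times gene length gave whole reads for 100% of values (within 0.01), and the recovered reads served edgeR and DESeq2 as alternatives.

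The main test was limma 3.58.1 (R 4.3.3; lmFit followed by eBayes, with its trend and robust options) on log2(FPKM + 1), over 18614 genes with a mean of at least 1 FPKM, with Benjamini-Hochberg adjustment over all of them. It was tested on simulated data. All 109 members matched the TAIR10.1 RefSeq annotation with the same start and end, so its sequence was used. Arrays are members of 1 family less than 50 kb apart. Shared sequence is the percentage of 50-base windows of a transcript found in another gene. Within groups no library repeated another (chi-square per degree of freedom 12.3 to 34.9).

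The members and gene lists were chosen with earlier results of these data known. Named are every called member, the most abundant member of each family, and in each list the called genes or else the one with the lowest adjusted p; other genes named, among them untested ones and neighbours, were chosen after their values were seen. All called genes of the root marker list are given as a count. Alternatives were pseudocounts of 0.1 and 0.5, no filter or a minimum of 5 FPKM, other scalings, another variance setting, a replicate block, each library left out, edgeR 4.0.16 and DESeq2 1.42.0. Genes of these families that carry no such name in the table were not used here.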

Additional observations from a re-analysis of the deposited data

How the results depend on the processing

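The number of P450 members higher was 18 and ran from 8 to 19 with 1 library left out, at 8, 10, 9 and 11 without control 1, 2 and 3 and treated library 3. Under the other alternatives it was 12 to 20. The number lower was 5, ran from 3 to 7 with 1 library left out, was 10 with no filter and 1 with a minimum mean of 5 FPKM, which leaves fewer genes in the test. Over all genes 2696 were called, 1340 to 3442 with 1 library left out (1340 without control 1, 1555 without control 2). For P450s outside the members the count of 29 became 15 at a minimum mean of 5 FPKM and ran from 21 to 33 with 1 library left out. None of the 23 called members changed direction under these alternatives. Of the 34 not past the threshold, 17 turned sign in at least 1 of them, with log2 changes of at most 0.26 in size that did not pass the threshold. Of 487 values of named members under an alternative, 425 kept their direction and side of the threshold, 54 lost it, 3 gained it and 5 turned sign. With 1 library left out CYP71B26 ran from -0.19 to 0.12 (turning without control 2, treated library 1 or treated library 3), CYP72A11 from -0.12 to 0.030 (without treated library 1) and CYP704A2 from -0.0017 to 0.19 (without treated library 2). edgeR called 19 members higher and 5 lower and DESeq2 20 and 6, with all 23 calls shared. At an equal FPKM sum per library CYP71B29 and CYP81D4 lost their calls. With no filter 18 of the 23 calls were shared, and CYP71B19, CYP71B29, CYP71B5, CYP71B6 and CYP81D4 were lost. The scalings moved the median of all genes by less than 0.1.

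The replicate block gave 18 members higher and 6 lower, with 22 of the 23 calls shared; CYP71B6 was lost, and CYP71B12 and CYP89A2 were gained. Over all genes it called 3256, and 32 of the P450s outside the members. Libraries of the same number shared deviations weakly (correlations 0.086, 0.383 and 0.101), so the numbers were not taken as pairs. Not every library correlated best with its own number. Depth limits the 52 untested members, where a count of 0 allows up to 3 reads. The causes of these changes were not tested.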
